A study of Mus musculus with 24 samples.

Results

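The 9 genes described here encode the enzymes that build fatty acids from acetyl-CoA and the transcription factor that controls them. They were chosen by name from the gene count table, as Acly, Acss2, Acaca, Acacb, Fasn, Elovl6, Scd1, Scd2 and Srebf1, and are 9 of its 55487 genes. All 9 were among the 15828 genes with enough reads to be tested. In the cytosol, ACLY splits citrate and ACSS2 activates acetate, and both reactions yield acetyl-CoA. The acetyl-CoA carboxylases ACACA and ACACB turn acetyl-CoA into malonyl-CoA, and FASN joins malonyl units into palmitate. ELOVL6 lengthens palmitate, and the stearoyl-CoA desaturases SCD1 and SCD2 place the first double bond. Srebf1 encodes SREBP1, a membrane-bound transcription factor that is released by proteolysis and activates lipogenic genes. MTORC1 signalling is known to favour the activity of SREBP1, and AMPK phosphorylates and inhibits both carboxylases, an effect on the protein that a measurement of mRNA does not show.

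The 24 libraries hold poly(A) RNA of mouse fibroblasts taken from embryos and grown in culture (MEFs). Cells were wild type (WT) or labelled AMPK KO, and received vehicle (DMSO), the AMPK-activating compound MK-8722 (label MK8722), or torin1, an ATP-competitive inhibitor of the kinase MTOR (label Torin-1), in 6 groups of 4 libraries. The study names the AMPK KO cells as a prkaa1 prkaa2 double-knockout MEF line, which lacks both catalytic subunits. The age of the embryos and the dose and time of treatment for these libraries are not given in the sources used here. Each WT group held 1 library of each of passages 12, 13, 14 and 15, and each AMPK KO group 1 of passages 16, 17, 18 and 19, so genotype and passage range cannot be told apart. Nothing in the labels says that the 4 libraries of a group came from separate isolates of cells, and p-values then measure only the spread between cultures of different passage.

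Total estimated counts ranged from 26900240 to 34192685 per library, RNA integrity numbers from 9.7 to 10, and all libraries carried the same batch label. Levels are given as CPM, read counts divided by library size after scaling with TMM factors, and differences as log2 fold changes with their standard errors (SE) from edgeR. A gene was called at a Benjamini-Hochberg adjusted p under 0.05 over all tested genes and a fold change of at least 1.2. Prkaa1, which encodes a targeted subunit, lay at 78.0 to 82.6 CPM in WT DMSO and at 66.9 to 73.3 CPM in AMPK KO DMSO. Prkaa2, the other, lay at 3.22 to 5.71 CPM in WT DMSO and 2.34 to 4.49 CPM in AMPK KO DMSO. Counts over a whole gene can include reads outside a deleted part, so they do not check the label. The summed CPM of 9 fibroblast markers were 11150 to 15920 in WT DMSO and 4797 to 5371 in AMPK KO DMSO, with no marker at 0. Markers of adipocytes and hepatocytes, the cells best known for fatty acid synthesis, summed to at most 0.476 and 0.481 CPM in any library.

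Per transcript length, Scd2 was the most abundant of the 9 genes in WT DMSO and Acacb the least. In TPM, an abundance that allows comparison between genes, the WT DMSO means were 446 ± 132 for Scd2, 177 ± 20.9 for Fasn, 143 ± 12.3 for Acly, 108 ± 17.9 for Scd1, 61.8 ± 9.31 for Srebf1, 49.2 ± 0.584 for Acaca, 21.4 ± 4.40 for Elovl6, 2.17 ± 0.577 for Acss2 and 0.431 ± 0.0891 for Acacb (SD, n = 4). Fasn and Acly overlapped between libraries, and no other neighbours in this order did. In AMPK KO DMSO, Acly (176 TPM) stood above Fasn (152 TPM), and Srebf1 (62.6 TPM) and Scd1 (60.7 TPM) overlapped. With torin1, Scd2 no longer stood clear of the others. Scd2 (119 TPM), Acly (107 TPM), Fasn (104 TPM) and Scd1 (94.6 TPM) overlapped in neighbouring pairs in WT torin1, and Acly (147 TPM) stood above Scd2 (103 TPM) without overlap in AMPK KO torin1. Of the acetyl-CoA sources, Acly exceeded Acss2 in TPM in all 6 groups, and of the carboxylases Acaca exceeded Acacb.

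**Figure D1:**
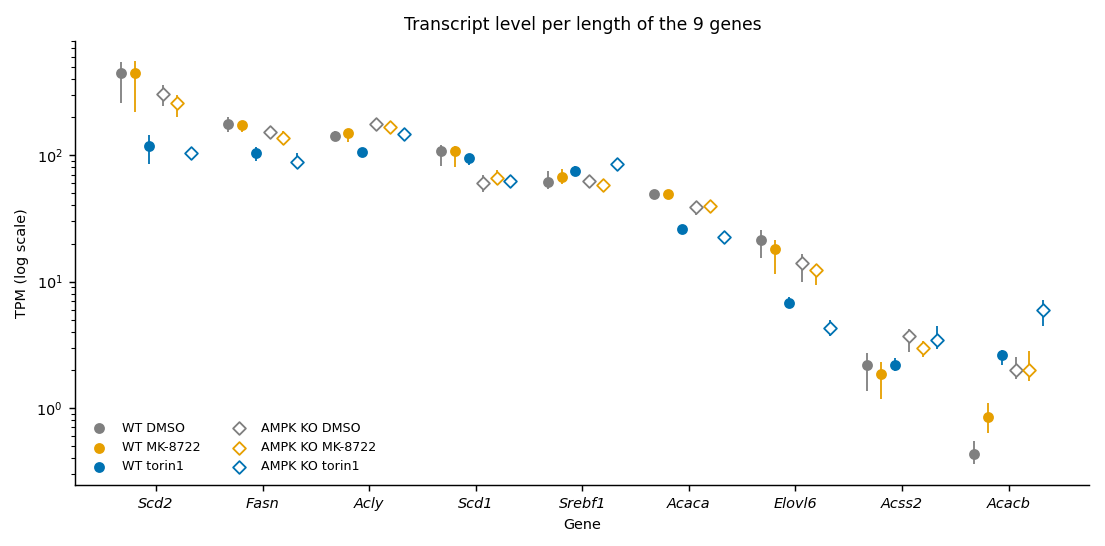
TPM of the 9 genes on a log scale, ordered by their mean in WT DMSO, with a point for each group mean and a line from the lowest to the highest of its 4 libraries. Filled circles are WT and open diamonds AMPK KO, in grey for DMSO, orange for MK-8722 and blue for torin1. The blue points lie lowest for Scd2 (119 and 103 TPM) and highest for Acacb (2.62 and 5.98 TPM).

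Promoter sequence of 7 of the 9 genes was held by the RefSeq table used (GRCm38.p6), in 9 windows. Shown are the 250 bases before the annotated start for Fasn and Acacb, which moved in opposite directions with torin1, and for both starts of Srebf1 that are compared further on. Capitals mark the letters of the motifs CCAAT, the box bound by NF-Y, and TCACCC, part of a sterol regulatory element, on either strand.
Fasn, chr11:120824548-120824797, minus strand: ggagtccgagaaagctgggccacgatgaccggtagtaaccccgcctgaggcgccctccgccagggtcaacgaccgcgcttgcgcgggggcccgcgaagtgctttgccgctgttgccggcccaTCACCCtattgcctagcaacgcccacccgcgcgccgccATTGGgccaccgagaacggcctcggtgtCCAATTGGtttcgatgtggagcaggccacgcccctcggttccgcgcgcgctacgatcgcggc
Acacb, chr5:114165268-114165517, plus strand: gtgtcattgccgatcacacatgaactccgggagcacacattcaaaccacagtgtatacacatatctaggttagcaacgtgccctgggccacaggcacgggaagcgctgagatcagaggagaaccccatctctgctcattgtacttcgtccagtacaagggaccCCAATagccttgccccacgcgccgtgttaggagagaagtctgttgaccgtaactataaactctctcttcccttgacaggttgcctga
Srebf1 upstream start, chr11:60220628-60220877, minus strand: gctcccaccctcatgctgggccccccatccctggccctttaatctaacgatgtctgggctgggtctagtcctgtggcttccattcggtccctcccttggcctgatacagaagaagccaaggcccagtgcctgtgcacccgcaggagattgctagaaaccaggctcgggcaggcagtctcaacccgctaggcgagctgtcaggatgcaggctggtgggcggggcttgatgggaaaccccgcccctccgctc
Srebf1 downstream start, chr11:60210472-60210721, minus strand: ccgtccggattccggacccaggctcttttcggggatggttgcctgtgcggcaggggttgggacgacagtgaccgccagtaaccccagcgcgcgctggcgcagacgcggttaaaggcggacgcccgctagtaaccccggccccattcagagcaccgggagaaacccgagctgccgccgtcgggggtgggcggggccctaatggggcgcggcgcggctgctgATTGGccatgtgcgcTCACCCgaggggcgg
Fasn held CCAAT 3 times, 90, 62 and 59 bases before the start, the latter pair overlapping on opposite strands, and TCACCC 128 bases before it. Acacb held CCAAT 87 bases before the start shown, which is the downstream of its annotated starts for long transcripts and lies inside the gene. The downstream start of Srebf1 held CCAAT 30 and TCACCC 15 bases before it, and the upstream start held neither. Of the windows not shown, that of Acss2, not called with torin1, held CCAAT 73 and TCACCC 31 bases before the start. A further Srebf1 window held CCAAT 166 bases before its start. The windows of Acaca, Acly and Elovl6, which fell with torin1, held neither motif. That of Acaca (chr11:84195188-84195437, plus strand) lies inside the gene, so the sequence before its first annotated start was not searched. Among 32851 promoter windows of this length, 33.8% held CCAAT and 13.8% held TCACCC. The longer element TCACNCCAC (1.05% of windows) and the E-box CACGTG (6.02%) were in none of the 9 windows. TCACCC was searched only after the sequences had been seen, and such matches describe letters and not binding.

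The question of how the inhibition of MTOR by torin1 altered the program was addressed first in WT cells. Torin1 lowered 6 of the 9 genes and raised 1. Acaca, Acly, Fasn, Scd1, Scd2 and Elovl6 fell, Acacb rose, and Acss2 and Srebf1 were not called. Over all tested genes, 21.1% were called lower and 26.6% higher in this comparison. The median log2 fold change was -0.52 over the 9 genes and 0.04 over all genes. In AMPK KO cells, torin1 lowered 5 genes (Acaca, Acly, Fasn, Scd2 and Elovl6) and raised 2 (Acacb and Srebf1), where 17.6% of all genes were called lower and 25.9% higher, with medians of -0.34 and 0.06. The comparisons of torin1 and of MK-8722 with DMSO share the DMSO libraries of their genotype. In bulk RNA, fewer cells that express a gene and less of its RNA per cell cannot be told apart. Summed fibroblast markers were 13550 to 17110 CPM in WT torin1 and 6268 to 6833 CPM in AMPK KO torin1, with 4 of 9 markers called higher in each genotype and 2 lower in WT and 3 in AMPK KO, and their part in the members' changes was not tested.

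**Figure D2:**
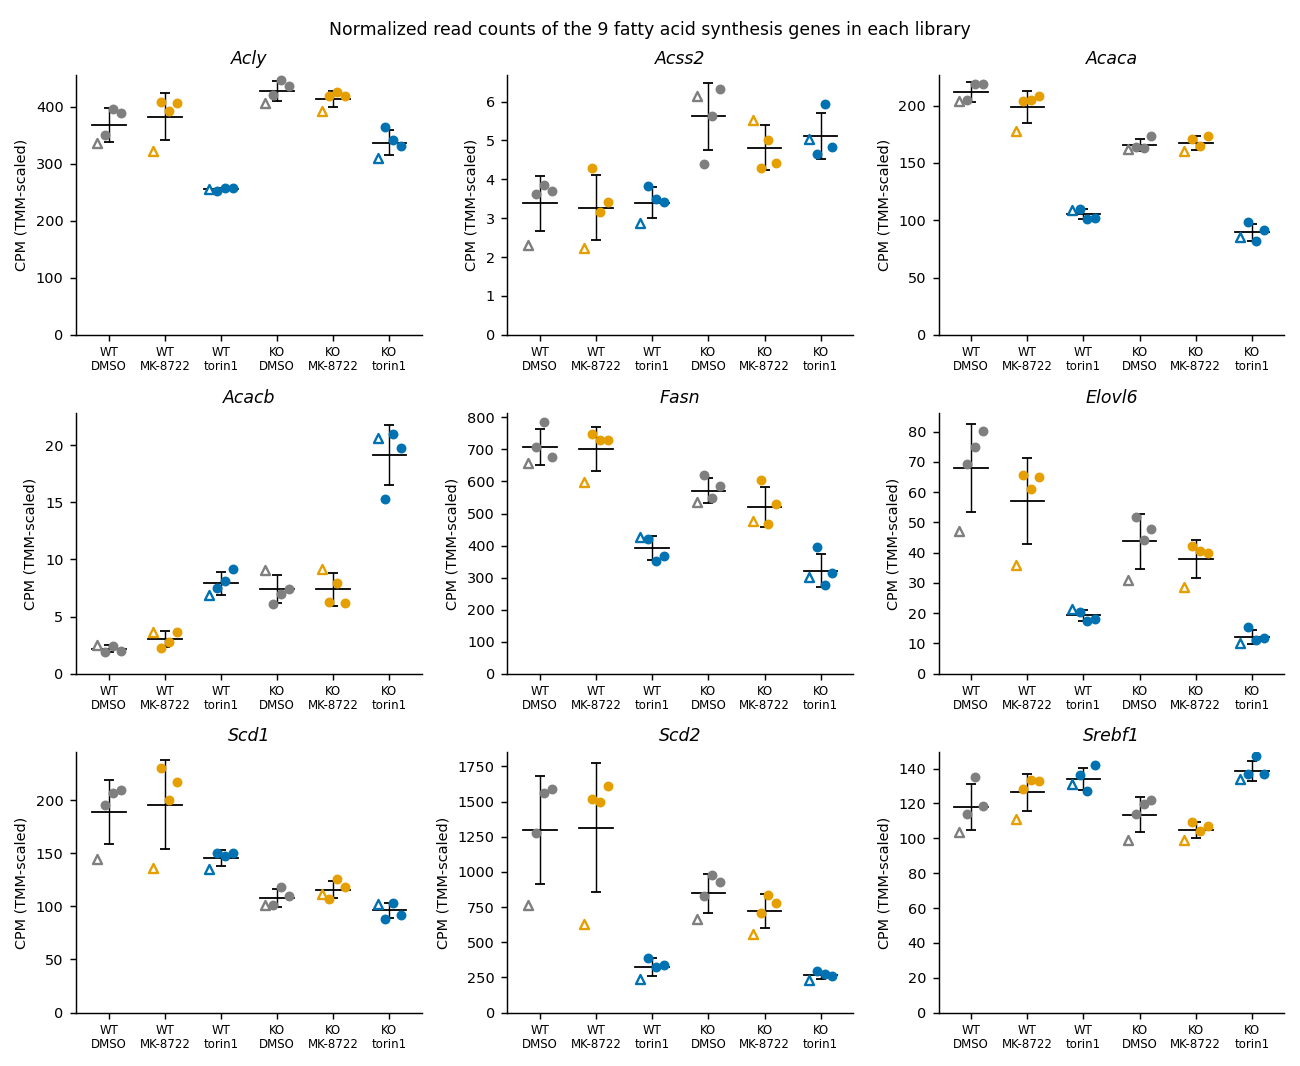
CPM of the 9 genes in each of the 24 libraries, by group, with bars at the mean and whiskers of 1 SD (n = 4). Open triangles mark the libraries of the lowest passage of each genotype, 12 in WT and 16 in AMPK KO, and the y axes start at 0. Scd2 lay between 242 and 391 CPM in WT torin1, below the 764 to 1593 CPM of WT DMSO.

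Of the genes that supply acetyl-CoA, Acly (chr11:100476353-100528000) fell with torin1 and Acss2 (chr2:155517948-155585724) was not called. Acly lay at 336, 351, 396 and 390 CPM in WT DMSO at passages 12, 13, 14 and 15, and at 257, 253, 257 and 258 CPM in WT torin1. The groups did not overlap. The log2 fold change was -0.52 (SE 0.064, adjusted p = 1.7e-07). In AMPK KO, Acly lay between 406 and 447 CPM with DMSO and between 311 and 365 CPM with torin1, a log2 fold change of -0.34 (SE 0.064, adjusted p = 6.7e-05). Acss2 was low throughout. It lay at 2.32 to 3.86 CPM in WT DMSO and 2.88 to 3.84 CPM in WT torin1 (log2 fold change 0.02, 95% interval -0.35 to 0.38), and at 4.40 to 6.31 and 4.65 to 5.95 CPM in AMPK KO (-0.14, -0.48 to 0.20).

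The carboxylases moved in opposite directions. Acaca (chr11:84129672-84401651), the cytosolic carboxylase that feeds synthesis, lay at 203.9, 204.8, 218.9 and 219.3 CPM in WT DMSO at passages 12 to 15 and at 109.3, 109.9, 101.4 and 101.8 CPM in WT torin1. Acacb (chr5:114146535-114250761), whose product sits at mitochondria and restrains fatty acid oxidation, lay at 2.51, 1.94, 2.39 and 1.95 CPM in WT DMSO and at 6.88, 7.49, 8.15 and 9.21 CPM in WT torin1. For neither gene did the groups overlap. Acaca fell by 1.004 on the log2 scale (SE 0.054, adjusted p = 2.7e-13), to 0.499 of its level, and Acacb rose by 1.84 (SE 0.17, adjusted p = 2.4e-09), 3.59-fold. In AMPK KO, Acaca fell from between 162 and 174 CPM to between 82.1 and 98.6 CPM (log2 fold change -0.89, SE 0.054, adjusted p = 4.2e-12). Acacb rose there from between 6.09 and 9.06 CPM to between 15.3 and 20.95 CPM (1.37, SE 0.15, adjusted p = 2.7e-08). In TPM, Acacb stood at 0.875% of Acaca in WT DMSO and 10.1% in WT torin1, and at 5.203% and 27.01% in AMPK KO, so Acaca remained the more abundant carboxylase. The size of this change depends on how reads were split between transcripts of unlike length. Mean CPM of Acacb and Acaca were 2.195 and 211.7 in WT DMSO and 7.932 and 105.6 in WT torin1.

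Some reads of these genes could not be credited to 1 gene. For Acaca, of all 52-base stretches in its annotated transcripts, 30.1% also occurred in another gene, mostly in the processed pseudogene Gm5182. Estimated counts were fractional, beyond 0.01 of a whole number, in 100% of libraries for Acaca, Scd1 and Scd2, in 79.2% for Elovl6 and in 0% for the other genes. The counts credited to Gm5182 stood at 11.5 ± 1.54 CPM in WT DMSO and 5.76 ± 0.506 CPM in WT torin1 (SD, n = 4). The part of its reads in the result for Acaca was not tested. The shared part was 4.34% for Scd1, 3.72% for Scd2 and 3.83% for Elovl6, 6.01% for Acss2, 1.26% for Srebf1 and 0% for Acly, Acacb and Fasn.

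Fasn (chr11:120805846-120824547), the synthase itself, fell in both genotypes. In WT DMSO it lay at 658, 708, 787 and 678 CPM at passages 12 to 15, and in WT torin1 at 428, 420, 353 and 366 CPM. The groups did not overlap, and the log2 fold change was -0.85 (SE 0.099, adjusted p = 8.1e-08). In AMPK KO it lay at 535, 619, 547 and 586 CPM with DMSO and at 301, 395, 277 and 315 CPM with torin1, again without overlap (-0.83, SE 0.099, adjusted p = 1.8e-07).

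The strongest falls were those of the desaturase Scd2 and the elongase Elovl6. Scd2 (chr19:44293674-44306864) lay at 764, 1277, 1560 and 1593 CPM in WT DMSO at passages 12 to 15 and at 242, 391, 323 and 337 CPM in WT torin1, which was 0.249 of the DMSO level (log2 fold change -2.01, SE 0.24, adjusted p = 1.1e-07). Elovl6 (chr3:129532355-129638495) lay at 47.3, 69.4, 74.9 and 80.2 CPM in WT DMSO and at 21.4, 20.4, 17.3 and 18.1 CPM in WT torin1, 0.284 of the DMSO level (-1.81, SE 0.19, adjusted p = 1.7e-08). Neither gene overlapped between DMSO and torin1. In AMPK KO, Scd2 went from 664, 828, 978 and 929 CPM at passages 16 to 19 to 231, 294, 276 and 260 CPM (-1.68, SE 0.24, adjusted p = 1.8e-06). Elovl6 went from 31.0, 51.8, 44.1 and 48.0 CPM to 9.99, 15.3, 10.97 and 11.8 CPM (-1.86, SE 0.20, adjusted p = 2.8e-08).

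Scd1 (chr19:44394455-44407879), the neighbouring desaturase, moved much less. It lay at 144, 195, 207 and 209 CPM in WT DMSO at passages 12 to 15 and at 135, 150, 147 and 151 CPM in WT torin1. The groups overlapped through the DMSO library of passage 12, and the log2 fold change was -0.37 (SE 0.12, adjusted p = 0.0085). In AMPK KO it was not called, at 101 to 118 CPM with DMSO and 88.2 to 103 CPM with torin1 (-0.16, SE 0.12, adjusted p = 0.26). With passage as a block it passed the test there and not the fold threshold (-0.161, SE 0.0675, adjusted p = 0.044). Without the libraries of passages 12 and 16, a fit added after the data had been seen, Scd1 fell in both genotypes (-0.43, adjusted p = 1.4e-05 in WT and -0.27, adjusted p = 0.002 in AMPK KO). In TPM, the ratio of Scd2 to Scd1 was 4.07 ± 0.713 in WT DMSO and 1.25 ± 0.167 in WT torin1, and 5.09 ± 0.700 and 1.68 ± 0.264 in AMPK KO (SD, n = 4).

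Srebf1 (chr11:60199089-60222581), the regulator, was not called lower in either genotype. It lay at 104, 114, 135 and 119 CPM in WT DMSO at passages 12 to 15 and at 131, 136, 127 and 142 CPM in WT torin1, with overlap. The log2 fold change of 0.19 (SE 0.071, adjusted p = 0.027) was under the fold threshold. In AMPK KO it rose from between 99.2 and 122 CPM to between 134 and 147 CPM without overlap (0.29, SE 0.071, adjusted p = 0.0013). That rise stood close to the fold threshold. It was 0.24 when only the compared libraries were fitted and 0.19 without the lowest passages, both under it, and it was called in 3 of 8 fits that left out a library.

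**Figure D3:**
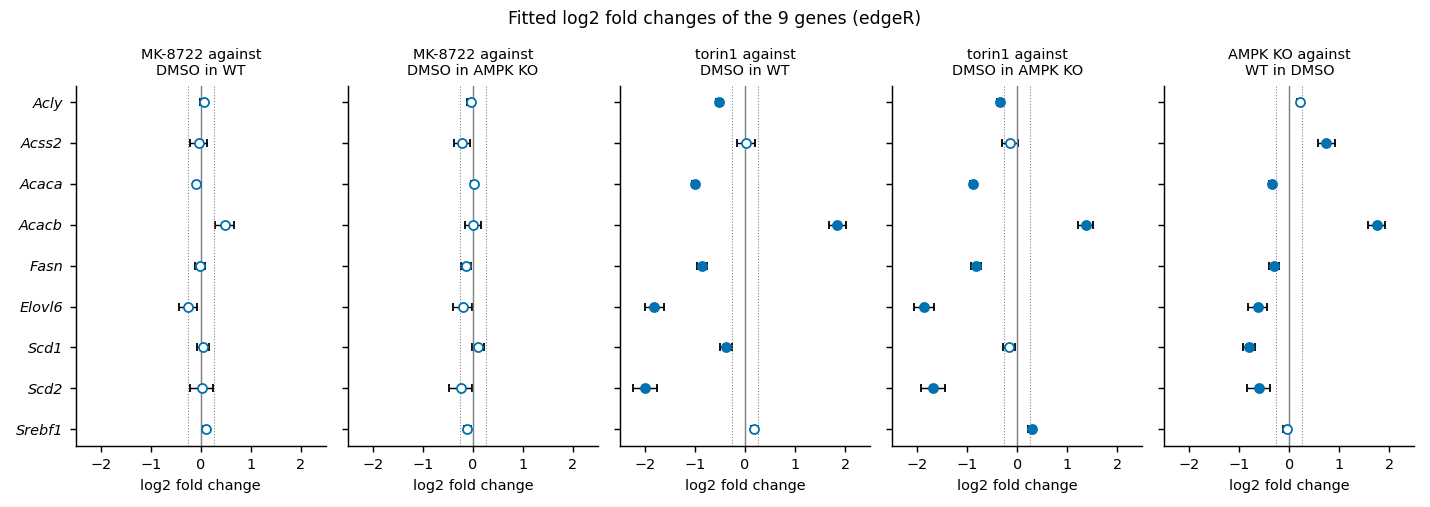
Log2 fold changes of the 9 genes from edgeR in 5 comparisons, with whiskers of 1 SE. Filled points were called, open points were not, and dotted lines mark a fold change of 1.2 either way. No point is filled for MK-8722, while with torin1 Scd2 and Elovl6 reach -2.01 and -1.81 in WT and Acacb 1.84.

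Srebf1 has alternative starts 10139 bases apart, of which the upstream one is that of the SREBP1a form and the downstream one that of the SREBP1c form, the form best known from lipogenic tissue. The transcript from the upstream start, Srebf1-201, had 24.3 ± 0.963 TPM in WT DMSO, 34.6 ± 1.62 TPM in WT torin1, 27.8 ± 2.16 TPM in AMPK KO DMSO and 38.8 ± 2.83 TPM in AMPK KO torin1 (SD, n = 4). The transcripts from the downstream start summed to 21.3 ± 5.01, 21.4 ± 3.35, 17.6 ± 2.98 and 24.4 ± 1.57 TPM in the same groups. Of these, Srebf1-208, a transcript of 686 bases annotated as not coding for protein, made up 10.2, 12.3, 8.55 and 15.6 TPM, and the coding Srebf1-207 11.1, 9.09, 9.04 and 8.82 TPM. In both genotypes the upstream transcript did not overlap between DMSO and torin1. The downstream sum overlapped between them in WT and not in AMPK KO. Only Srebf1 transcripts that start within 100 bases of either start are included. Srebf1 as a whole had 61.85 ± 9.31 TPM in WT DMSO (SD, n = 4). These values are a description, since reads of 52 bases seldom tell apart transcripts that share most exons. The share of Srebf1-201 in Srebf1 was 39.7% in WT DMSO and 46.0% in WT torin1 (exact two-sided permutation test, n = 4 per group, p = 0.143, adjusted p = 0.402). None of 45 such tests on the main transcripts of these genes passed, with a smallest adjusted p of 0.321 and a smallest possible exact p of 0.0286. A share at that smallest p passes the adjustment only if many of the others reach it too. The tests could therefore hardly pass, and do not show that shares were equal.

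**Figure D4:**
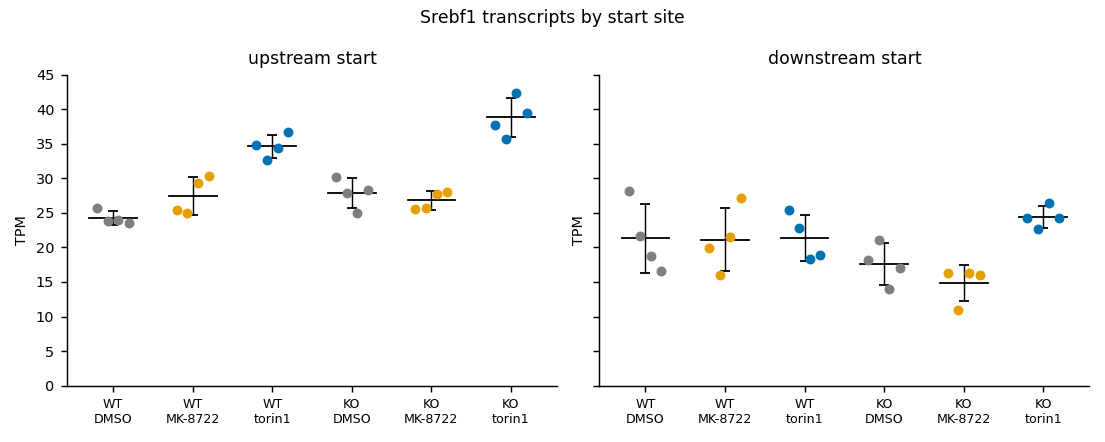
TPM of Srebf1 transcripts from the upstream and the downstream start in each library, by group, with bars at the mean and whiskers of 1 SD (n = 4). The upstream transcript lay at 32.7 to 36.6 TPM in WT torin1 and 23.5 to 25.7 TPM in WT DMSO, while the downstream sums of these groups overlapped.

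Whether activation of AMPK altered the same genes was asked with MK-8722. None of the 9 genes was called in WT, where 15.7% of all genes were called in either direction, and none in AMPK KO, where 1.56% were. At an unadjusted p under 0.05 in edgeR, Acacb alone passed in WT and no member in AMPK KO. DESeq2 called 1 member, Acacb, in WT and 0 in AMPK KO. The median log2 fold change of the 9 genes was 0.02 in WT and -0.12 in AMPK KO. In WT, the 95% intervals left room for changes of Acaca between -0.20 and 0.02, of Fasn between -0.22 and 0.19, of Acly between -0.08 and 0.19 and of Srebf1 between -0.05 and 0.25 on the log2 scale. The intervals of Scd2 (-0.46 to 0.50) and Elovl6 (-0.63 to 0.13) were wider. With passage as a block the SE fell from 0.229 to 0.101 for Scd2 and from 0.18 to 0.113 for Elovl6, and neither was called (-0.01, adjusted p = 0.94 and -0.26, adjusted p = 0.078). Endothelial markers, 3 of 4 tested, summed to 0.878 to 1.28 CPM in WT DMSO and 4.44 to 8.60 CPM in WT MK-8722, none of them at 0. Of the 3 tested, 1 was called higher, and their part in these values was not tested.

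Acacb with MK-8722 in WT was the closest to a call. It lay at 3.62, 2.22, 2.79 and 3.65 CPM at passages 12 to 15, against 2.51, 1.94, 2.39 and 1.95 CPM with DMSO. It was higher within each passage, by 0.20 to 0.91 on the log2 scale, although the groups overlapped. The log2 fold change was 0.48 (SE 0.19, adjusted p = 0.064). With passage as a block the adjusted p was 0.018, with DESeq2 it was 0.038, and with an offset for transcript length the log2 fold change was 0.95 (adjusted p = 0.0019). In the last of these fits its response to MK-8722 also differed between genotypes (interaction -0.96, adjusted p = 0.024). In TPM the groups did not overlap, with 0.357 to 0.543 in WT DMSO and 0.637 to 1.09 in WT MK-8722. The transcript tables gave the 676-base Acacb-205 a share of Acacb TPM between 0% and 24.8% in WT DMSO, between 22.2% and 50.3% in WT MK-8722 and between 36.5% and 43.8% in WT torin1. Elovl6 was lower with MK-8722 than with DMSO within each of the 4 passages of both genotypes, with log2 differences between -0.40 and -0.08 in WT and, in AMPK KO, between -0.30 and -0.11, and was not called (adjusted p = 0.33 and 0.64). In AMPK KO, Scd2 (-0.25 to -0.23), Fasn (-0.23 to -0.03), Acly (-0.07 to -0.01), Acss2 (-0.52 to -0.04) and Srebf1 (-0.20 to -0.003) were also lower with MK-8722 within 4 of 4 passages and Scd1 higher (0.08 to 0.14), and with passage as a block none was called there.

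Set directly against MK-8722, torin1 gave 6 lower genes and 1 higher gene in WT, where 21.2% of all genes were called lower and 24.5% higher. In AMPK KO, 5 genes were lower and 2 higher, where 18.7% and 26.8% of all genes were. The lower ones were Acaca, Acly, Fasn, Scd2 and Elovl6 in both genotypes and Scd1 in WT, and the higher ones Acacb in both and Srebf1 in AMPK KO. Scd2 differed by -2.02 (SE 0.24) in WT and -1.44 (SE 0.24) in AMPK KO, with adjusted p of 1.2e-07 and 1.2e-05. Srebf1 was 0.40 higher with torin1 than with MK-8722 in AMPK KO (SE 0.071, adjusted p = 3.3e-05) and 0.09 higher in WT (SE 0.071, adjusted p = 0.31). Scd1 in AMPK KO was -0.26 (adjusted p = 0.064) and was called with DESeq2 (-0.28, adjusted p = 0.036), with its size factors, with other filters and without the lowest passages.

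Whether the drug responses differed between AMPK KO and WT cells was tested as an interaction of drug and genotype. Loss of AMPK cannot be told apart here from passage range or from other differences between the cell lines. None of the 9 genes passed for torin1, where 7.07% of all genes did, and none for MK-8722, where 12.8% did. The difference between the torin1 responses of AMPK KO and WT was 0.11 for Acaca (95% interval -0.05 to 0.27), 0.03 for Fasn (-0.27 to 0.32), 0.32 for Scd2 (-0.36 to 1.01) and -0.05 for Elovl6 (-0.62 to 0.52). For Acacb it was -0.47 (-0.95 to 0.001, unadjusted p = 0.0471, adjusted p = 0.2), and with an offset for transcript length -1.04 (adjusted p = 0.02). A missed threshold does not show equal responses, and for Scd2 and Elovl6 these intervals were wide. With passage as a block the SE fell from 0.325 to 0.145 for Scd2 and from 0.272 to 0.181 for Elovl6. Neither was called there (0.293, adjusted p = 0.17 and -0.075, adjusted p = 0.83). DESeq2 also called 0 members in both tests. At an unadjusted p under 0.05, Srebf1 alone passed for MK-8722 (-0.21, edgeR adjusted p = 0.15) and Acacb alone for torin1. With passage as a block in edgeR, the adjusted p of Srebf1 for MK-8722 was 0.04 (-0.213), under the fold threshold and so not called. That of Acacb was 0.064 for MK-8722 and 0.051 for torin1.

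AMPK KO and WT cells differed already without drug. In DMSO, 5 of the 9 genes were lower in AMPK KO (Acaca, Fasn, Scd1, Scd2 and Elovl6) and 2 were higher (Acacb and Acss2), where 26.0% of all tested genes were called lower and 30.9% higher. The log2 difference was furthest from 0 for Acacb, which was 3.36-fold higher (1.75, SE 0.17, adjusted p = 3.3e-09), and Acss2 was 1.67-fold higher (0.74, SE 0.17, adjusted p = 0.00042). Scd1 differed by -0.81 (SE 0.12, adjusted p = 1.9e-06) and Elovl6 by -0.64 (SE 0.18, adjusted p = 0.0033). Acaca (-0.35), Fasn (-0.31) and Scd2 (-0.61) differed less or with more spread, with adjusted p of 2.7e-06, 0.0079 and 0.021. Acly (0.22) passed the test and not the fold threshold, and Srebf1 lay at -0.05 (adjusted p = 0.52). With scaling by library size alone, under which the median of all genes was 0.155 against 0.015 with TMM, Acaca (-0.21), Fasn (-0.17) and Scd2 (-0.48, adjusted p = 0.065) were not called and Acly was (0.36). Scd2 was called in 5 of 8 fits that left out a library, with an adjusted p of 0.072 without AMPK KO DMSO replicate 3. All 9 fibroblast markers also differed between the genotypes in DMSO, 8 lower and 1 higher in AMPK KO, with sums of 4797 to 5371 CPM against 11150 to 15920 CPM in WT. Of markers of other cell types, 2 of 2 epithelial ones tested, 1 of 1 of skeletal muscle and 2 of 3 endothelial ones were higher in AMPK KO, with epithelial sums of 3.04 to 4.55 CPM against 1.13 to 2.05 CPM in WT. The part of these markers in the members' differences was not tested, and passage range cannot be told apart from genotype.

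Several of these genes differed between the lowest and the later culture passages, though not in the same direction for every gene and group. In WT DMSO and WT MK-8722, Scd2 at passage 12 was 764 and 628 CPM, which was 0.517 and 0.407 of the mean of the later passages. Elovl6 was 47.3 and 35.9 CPM there, 0.632 and 0.560 of the later mean, and Scd1 144 and 136 CPM, 0.709 and 0.630. In AMPK KO DMSO, Scd2 and Elovl6 at passage 16 stood at 0.728 and 0.647 of the later mean. The library of the lowest passage was below the later ones in 6 of 6 groups for Scd2 and in 5 for Elovl6, Acly and Srebf1. It was below them in 4 groups for Acaca, in 3 for Acss2, Fasn and Scd1, and in 1 for Acacb. It was above them in 3 groups for Acacb and in 1 for Acss2. For Elovl6 and Fasn it was above them in WT torin1, at 1.15 and 1.13 of the later mean. Each passage has 1 library a group, so this is a description without a test. Without passages 12 and 16, the same 7 genes were called with torin1 in WT and the same 7 in AMPK KO against WT in DMSO. In AMPK KO, torin1 then also gave 7, with Scd1 in and Srebf1 out.

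**Figure D5:**
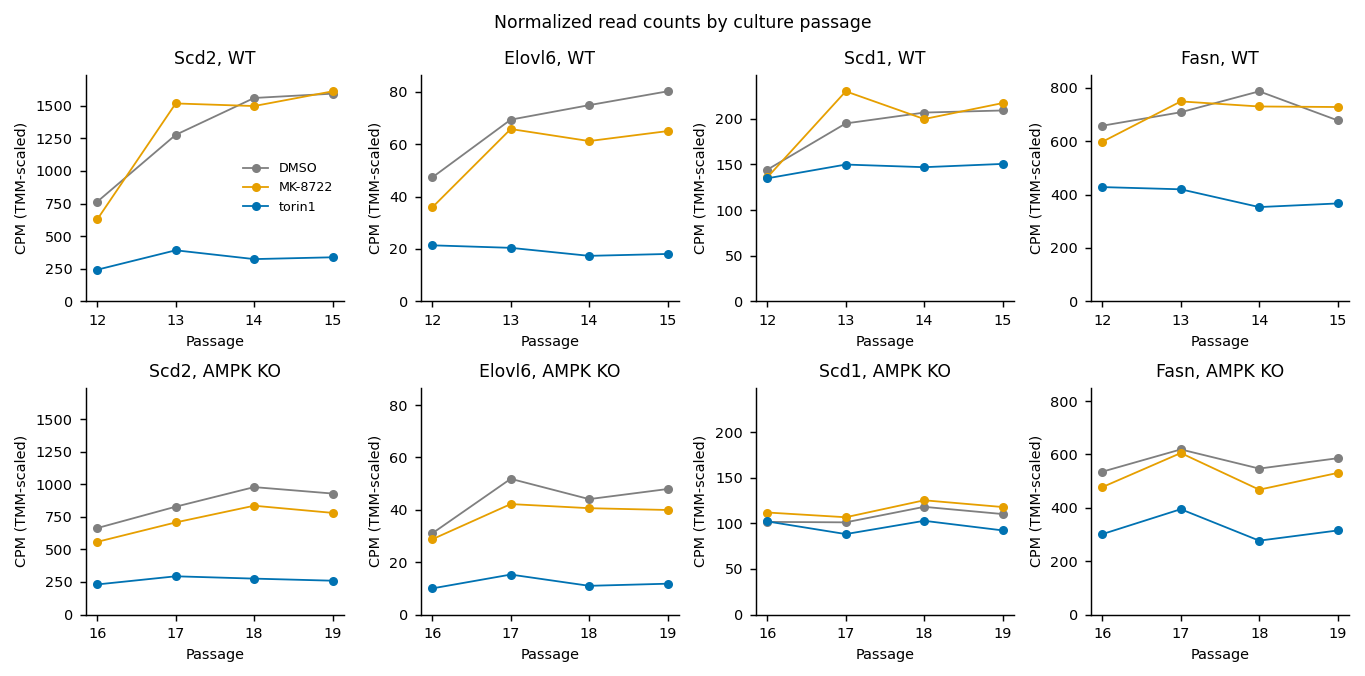
CPM of Scd2, Elovl6, Scd1 and Fasn against the passage number of the library, with WT above and AMPK KO below, and a line for each treatment. Each point is 1 library. Scd2 with DMSO rises from 764 CPM at passage 12 to 1593 CPM at passage 15, while all torin1 points lie at or below 391 CPM.

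Across the 24 libraries, each centred on the mean of its genotype, levels of Acaca, Acly, Fasn, Scd2 and Elovl6 rose and fell together, with Pearson r of 0.968 for Acaca and Fasn and 0.964 for Scd2 and Elovl6, and Acacb ran opposite to Fasn (r = -0.949). Srebf1 ran against Fasn (r = -0.552), and Acss2 had r = -0.004 with Fasn. These correlations are descriptions over 3 treatments. Among 10048 other genes, Acat2 (r = 0.989) was among those with levels most like Scd2, Uso1 (0.969) among those most like Acly, and Pmvk (0.907) and Nsdhl (0.904) were most like Scd1. For Fasn they were Tfrc (0.983) and Cks1b (0.978), for Acaca Ddx3x and Dad1 (both 0.992), for Elovl6 Psmd3 (0.986) and Oaz1 (0.985), for Acacb Cln6 and Lyrm9 (both 0.981), for Acss2 Flrt3 (0.834) and Ephb3 (0.813) and for Srebf1 Trpc4ap (0.904) and Dnpep (0.903).

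Genes of related pathways were counted by list, and those named below are the called genes with the largest rise or fall at a mean of at least 5 CPM. Each count stands beside the share of all tested genes called, and a count near that share is not a result about its list. Genes that act on SREBP1 or on the carboxylases moved in both directions. Of 12 tested, torin1 lowered 4 and raised 1 in WT and lowered 3 and raised 2 in AMPK KO, beside shares of 21.1% and 26.6% and of 17.6% and 25.9% over all genes. Mid1ip1, whose product aids polymerization of the carboxylases, fell from 63.5 ± 1.90 to 25.9 ± 1.97 CPM in WT (-1.29, SE 0.073, adjusted p = 5.9e-13) and by 1.21 on the log2 scale in AMPK KO (SE 0.076). MK-8722 raised 5 of these 12 genes in WT, where 15.7% of all genes were called in either direction. None was called in AMPK KO, where 1.56% of all genes were. Insig1, which retains SREBP in the endoplasmic reticulum, rose from 48.1 ± 11.5 to 97.3 ± 37.5 CPM in WT (1.02, SE 0.22, adjusted p = 0.00087), and its response differed between genotypes (interaction -1.60, SE 0.32, adjusted p = 0.0012). In DMSO, 4 were lower in AMPK KO, led by Insig1 (-1.14, SE 0.23), and 3 higher, led by Mlx (0.27, SE 0.054), beside 26.0% and 30.9% of all genes.

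Of 16 other elongation and desaturation enzymes tested, 7 fell and 2 rose with torin1 in WT, where 21.1% of all genes fell and 26.6% rose. In AMPK KO, 8 fell and 2 rose, where 17.6% and 25.9% of all genes did. Fads3, a desaturase-family gene beside Fads1 and Fads2, fell furthest, from 247 ± 11.2 to 105 ± 12.9 CPM in WT (-1.23, SE 0.073, adjusted p = 1.2e-12) and by 1.09 on the log2 scale in AMPK KO (SE 0.072). Hacd4, a dehydratase of the elongation cycle, rose in both (0.81, SE 0.23 and 0.79, SE 0.14). Of 10 tested genes that supply citrate, NADPH or malonyl-CoA turnover, 5 fell and 3 rose in WT and 4 fell and 3 rose in AMPK KO, the numbers that rose being near the share of all genes (26.6% and 25.9%). The genes that fell were led by Idh1 in WT (-0.85, SE 0.17) and G6pdx, the entry enzyme of the pentose phosphate pathway, in AMPK KO (-0.73, SE 0.079), and those that rose by Mlycd, which degrades malonyl-CoA, in WT (1.05, SE 0.16) and Oxsm, of mitochondrial fatty acid synthesis, in AMPK KO (0.95, SE 0.14). With MK-8722 in WT, where 15.7% of all genes were called in either direction, 2 of the 16 chain enzymes rose, led by Elovl4 (0.46, SE 0.093). Of the 10 supply genes, Mlycd rose (0.54, SE 0.17) and Pgd fell (-0.34, SE 0.066). Both counts were near the share of all genes.

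Of 16 fatty acid oxidation genes tested, torin1 raised 7 and lowered 1 in WT, where 26.6% of all genes rose and 21.1% fell. In AMPK KO it raised 4, near the 25.9% of all genes, and lowered 1, where 17.6% fell. Cpt1a, the carnitine palmitoyltransferase that malonyl-CoA inhibits, rose from 18.6 ± 0.449 to 58.4 ± 4.84 CPM in WT (1.65, SE 0.097, adjusted p = 1.1e-12) and by 1.48 on the log2 scale in AMPK KO (SE 0.092). Ppard fell in both genotypes (-0.38, SE 0.060 and -0.29, SE 0.058). Of 16 acyl-CoA synthetases and glycerolipid assembly genes, 7 fell and 2 rose in WT and 8 fell and 1 rose in AMPK KO, beside 21.1% and 26.6% of all genes in WT and 17.6% and 25.9% in AMPK KO. Acsl4 fell furthest in WT (-0.87, SE 0.10) and Dgat2 in AMPK KO (-0.58, SE 0.14), and Agpat4 rose in both (0.56, SE 0.069 and 0.29, SE 0.069). Of 7 uptake and binding genes, 2 rose and 1 fell in each genotype, near the shares of all genes, led by the fatty acid transporter Slc27a1 (1.77, SE 0.11 and 1.40, SE 0.095) and by Fabp5 (-0.48, SE 0.084 and -0.57, SE 0.085). Slc27a1 also rose with MK-8722 in WT, from 10.46 ± 0.785 to 41.8 ± 3.86 CPM (2.00, SE 0.11, adjusted p = 7.6e-12), where the interaction with genotype was -1.98 (SE 0.14, adjusted p = 4.1e-09).

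For comparison, 9 sterol genes, targets mainly of SREBP2, were described beside the fatty acid synthesis genes. Torin1 lowered 8 of the 9 in each genotype, where 21.1% of all genes fell in WT and 17.6% in AMPK KO. In DMSO, 8 were lower in AMPK KO than in WT, where 26.0% of all genes were, led by Fdft1 (-1.08, SE 0.18). MK-8722 raised 3 in WT, led by Hmgcs1 (0.66, SE 0.24, adjusted p = 0.04), and none in AMPK KO. Over all genes, 15.7% in WT and 1.56% in AMPK KO were called in either direction. The medians were -1.09 for torin1 in WT and 0.50 for MK-8722 in WT, against -0.52 and 0.02 for the 9 fatty acid synthesis genes.

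In AMPK KO against WT with DMSO, where 30.9% of all genes were higher and 26.0% lower, the other lists were divided, and many of their counts lay near these shares. Of the 16 other chain enzymes, 8 were lower, led by the elongase Elovl5 (-0.65, SE 0.048), and 4 higher, led by Hacd4 (3.61, SE 0.19). Of the 10 supply genes, 5 were lower, led by Oxsm (-2.67, SE 0.13), and 4 higher, led by Mlycd (0.68, SE 0.17). Of the 16 oxidation genes, 6 were higher, led by Cpt1a (0.86, SE 0.098), and 2 lower, led by the acyl-CoA dehydrogenase gene Acadl (-0.48, SE 0.064). Of the 16 synthetase and assembly genes, 5 were higher, led by the acyl-CoA synthetase gene Acsl6 (4.52, SE 0.16), and 2 lower. All 7 uptake and binding genes tested differed, 3 higher, led by Slc27a1 (1.78, SE 0.11), and 4 lower, led by Slc27a3 (-0.68, SE 0.12). With MK-8722 in AMPK KO, where 1.56% of all genes were called in either direction, 1 chain enzyme rose and Cpt1a fell (-0.50, SE 0.095, adjusted p = 0.0061). No other gene of these lists was called.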

How the data were processed

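Poly(A) RNA libraries were made and sequenced as 52-base read pairs by the authors, who aligned reads to GRCm38 with STAR and quantified them with Salmon in the nf-core/rnaseq pipeline, using UMI options. Values of the gene table were deposited by the authors as estimated counts from Salmon, not normalised. The deposited transcript tables hold TPM and estimated counts per transcript, also from Salmon by the authors, and gene TPM were summed from them. The authors' later removal of a batch, which they do not name, was not applied.

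Estimated counts were rounded, filtered with filterByExpr, scaled by TMM and fitted as 6 group means over 24 libraries with edgeR 4.0.16 (quasi-likelihood test, R 4.3.3), with Benjamini-Hochberg adjustment over all genes tested. The fit was tried on simulated independent counts with few changed genes and no passage effect. That trial does not cover the many changed genes or the passage differences of these libraries. Intervals are 95% intervals from the fitted log2 fold change, its SE and the residual degrees of freedom. The test used moderated degrees of freedom, so an interval and its p-value can differ slightly. Transcript shares were compared by exact permutation tests. DESeq2 1.42.0, other scalings and filters, passage blocks and omitted libraries served as alternatives. A filter on low counts that lets a gene pass in 1 group left all 9 members in. No replicate pair agreed within sampling noise (lowest chi-square per degree of freedom 3.52 over 36 pairs).

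The members and gene lists were chosen with earlier results of these data known. From each list, the called gene with the largest rise and fall and a mean of at least 5 CPM was named, together with all 9 members, Prkaa1 and Prkaa2, and the 2 genes most like each member over the libraries, gene models and pseudogenes passed over. Some genes that this rule names are not reported here.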

Additional observations from a re-analysis of the deposited data

Results flagged for a closer look

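In 7 of 54 sets of 4 libraries (9 genes in 6 groups), the lowest library stood apart from the others by Dixon's criterion, which chance exceeds in about 1 of 20 sets. In WT MK-8722 replicate 2, of passage 12, this held for Acaca (178.2 CPM, the others 204.4 to 208.8), Fasn (597.6 CPM, the others 727.9 to 748.9), Scd2 (628.4 CPM, the others 1498 to 1611) and Elovl6 (35.86 CPM, the others 61.19 to 65.79). Acss2 was at 2.323 CPM in WT DMSO replicate 4, also of passage 12, and at 3.62 to 3.861 CPM in the others. Elovl6 was at 28.76 CPM in AMPK KO MK-8722 replicate 2, of passage 16, and at 39.94 to 42.2 CPM in the others. Acly was at 253.2 CPM in WT torin1 replicate 2, of passage 13, where the others lay within 256.8 to 257.5 CPM. The 54 sets are not independent, since the 9 genes share libraries and several rose and fell together. The count of 7 is therefore not a test against 1 of 20.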

How the results depend on the processing

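No member changed direction after a call under any alternative. With MK-8722 in WT, 1 member (Acacb) was called with an offset for transcript length, with passage as a block and with DESeq2, and 0 to 1 when a library was left out (1 without WT MK-8722 replicate 1). For the interaction of MK-8722 with genotype, 1 member (Acacb) was called with the length offset, and 0 to 1 without a library (Srebf1, adjusted p = 0.049, without WT MK-8722 replicate 2). For the interaction of torin1 with genotype, 1 member (Acacb) was called with the length offset. The cause was not tested. Leaving out a library gave 7 calls for torin1 in WT, 6 to 7 for torin1 in AMPK KO and for AMPK KO against WT in DMSO, 7 for torin1 against MK-8722 in WT and 7 to 8 in AMPK KO.

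Replicate numbers did not pair the samples: deviations of same-numbered libraries correlated with a median r of 0.0245 over 60 pairs, with 5 above 0.1, against 0.129 over 24 pairs of the same genotype and passage, with 15 above 0.1. With the replicate number as a block, the counts of called members stayed the same, 7 for torin1 in WT. Scaling by library size alone added Srebf1 with torin1 in WT (0.29) and removed Acly for torin1 against MK-8722 in AMPK KO (-0.22). A minimum of 10 counts in every library removed Fasn for AMPK KO against WT (-0.25) and added Acly (0.27). The length offset removed Scd1 for torin1 against MK-8722 in WT (-0.27, adjusted p = 0.062). Requiring a fold change of 1.5 removed 10 calls, and testing against a fold change of 1.2 removed 7. Of 54 transcript shares, 49 moved beyond 1 SD when taken of estimated counts. Of the 54 levels in TPM, 53 moved when given as TMM-scaled counts per kilobase, which left the order of the genes by mean the same in all 6 groups.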
